A study of Mus musculus with 3 samples.

Results

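The T cell antigen receptor of conventional T cells is an alpha and a beta chain, which bind antigen but carry almost no cytoplasmic part. Signals are passed on by the CD3 chains, whose tails hold immunoreceptor tyrosine-based activation motifs (ITAMs), and CD4 is the coreceptor that binds MHC class II and brings the kinase Lck to the complex. The alpha, beta and CD3 chains must all be made for the receptor to reach the cell surface, and T-helper cells keep the whole set in use after they leave the thymus. The 8 genes described here encode these chains: Trac and the near-identical pair Trbc1 and Trbc2 (constant regions of the alpha and beta chains), Cd3d, Cd3e and Cd3g (CD3 delta, epsilon and gamma), Cd247 (CD3 zeta) and Cd4. They were picked by symbol, and all 8 were found among the 50600 genes counted.

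RNA was sequenced from mouse T-helper 1 (Th1) primary cells of strain C57BL/6NJ in 3 libraries of a single group, biological replicates 1, 2 and 3; there is no treated, mutant or control group. The file headers add 24 hr to the name of each library, and sex and age are not recorded. A single donor entry covers the 3 libraries and nothing tells whether separate animals or cultures were used, so the p-values below concern the spread between these libraries alone, and that spread may be technical. The labels call the assay total RNA sequencing but link a protocol for polyA-selected RNA, and the sources used here do not give the strand that the kit keeps. Every value below therefore holds only for the strand setting with which the authors counted. Were that setting opposite to the kit, the counts listed for a gene would be signal from its other strand, and its level, its zeros, its place in an order and its share would not describe its mRNA. In 741 of 849 pairs of a protein-coding gene and an antisense gene with shared exon bases, or 87.3%, the antisense gene had more counts per kb. Which strand the kit keeps was not tested.

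Total counts of read pairs were 3553547, 2945353 and 3369468 in replicates 1, 2 and 3. Of the 5 Th1 markers, Tbx21, the master transcription factor, had 15, 11 and 8 counts, Ifng had 2, 2 and 1, and Cxcr3 had 2, 1 and 1. These defining Th1 genes were low or nearly absent, Tbx21 at 2.47 ± 0.73 TPM (SD, n = 3) and the others below 1 TPM on average. TPM, a length-corrected level, are counts per kb of exon length, scaled to the same fixed sum in each library. Stat4 had 52, 23 and 33 counts, and Il12rb2, with 90, 105 and 114, shares exon bases with Serbp1 on the opposite strand. The receptor genes themselves and other T cell genes were present, and the 5 gamma delta markers summed to 4 to 14 counts per library, with Trgc1, Trgc2 and Trgc4 at 0. The 4 natural killer markers summed to 3 to 6 counts with Ncr1, Klrb1c and Klrk1 at 0. The 7 myeloid markers summed to 1425 to 1469 counts, nearly all of them from Csf1r, whose exons overlap Hmgxb3 on the opposite strand, while Lyz2, Siglech and Cd14 were at 0.

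The ITAM is the feature that the 4 CD3 genes share, and it was searched in their coding transcripts. The pattern was a tyrosine, any 2 residues and leucine or isoleucine, repeated after 6 to 12 residues. For each CD3 gene the transcript with the most matches was kept, and among equals the one with the longest coding part. The numbers of motifs are thus the highest of any transcript by choice. The motif was found 1 time each in Cd3e, Cd3d and Cd3g and 3 times in Cd247-201, which codes for 164 residues. The coding stretches, from the GENCODE M21 transcripts (GRCm38) and running across an exon junction in each case, are shown because they are what these mRNAs contribute to signalling; capitals mark the 2 tyrosine codons of each motif.
Cd3e: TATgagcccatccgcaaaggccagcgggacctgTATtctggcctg
Cd3d: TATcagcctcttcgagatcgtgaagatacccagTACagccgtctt
Cd3g: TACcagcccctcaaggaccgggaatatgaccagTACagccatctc
Cd247 motif 1: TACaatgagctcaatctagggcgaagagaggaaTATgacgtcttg
Cd247 motif 2: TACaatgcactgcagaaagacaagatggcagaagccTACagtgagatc
Cd247 motif 3: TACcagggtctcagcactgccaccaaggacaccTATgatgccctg

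The end of the Cd3e coding sequence matters for a further reason. Its last coding exon, chr9:44999534-44999587 on the minus strand (GRCm38), runs into bases that the annotated antisense gene Gm48719 also uses, and capitals mark the 30 coding bases shared by both genes. These 30 bases include the second tyrosine codon of the Cd3e ITAM shown above.
Cd3e, end of the coding sequence: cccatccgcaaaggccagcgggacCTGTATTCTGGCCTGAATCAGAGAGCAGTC

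For the beta chain, the question was how far the counts of its 2 constant genes can be told apart. The coding parts of Trbc1-202 and Trbc2-201 have 518 bases each and differ at 23 of them, an identity of 95.6%. Of the 375 coding bases of exon 1, which encodes most of the constant domain, 1 differs, C260A (from Trbc1 to Trbc2, counted from 1 at the first coding base), and the first 259 bases are identical. Exon 3 holds 15 of the 23 differences, and the 90 bases with the most of them, 14, are shown with the differing bases in capitals: they lie at chr6:41539235-41539324 in Trbc1 and at chr6:41547778-41547867 in Trbc2, both on the plus strand.
Trbc1: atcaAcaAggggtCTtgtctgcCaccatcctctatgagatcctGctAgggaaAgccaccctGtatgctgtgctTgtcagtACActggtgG
Trbc2: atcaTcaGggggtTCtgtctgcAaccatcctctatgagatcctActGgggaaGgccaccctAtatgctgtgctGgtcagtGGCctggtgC
A read pair inside the identical stretch fits both genes. The counting command in the file headers names no option that would keep such pairs, so the counts of Trbc1 and Trbc2 are uncertain and the level of each may be too low.

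Each of the 8 genes reached 1 TPM or more in every library and counts as detected, as do 22.5% of all 50600 genes. The median of the 8 genes was 127, 64.1 and 108 TPM in replicates 1, 2 and 3 (99.8 ± 32.3, SD, n = 3), beside 11.8, 7.27 and 10.2 TPM for the 8958 detected protein-coding genes (9.77 ± 2.29). Both medians were lowest in replicate 2.

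Among the antigen-binding chains, Trac (ENSMUSG00000076928, chr14:54220521-54224206, plus strand) was listed at 263, 117 and 208 TPM in replicates 1, 2 and 3, a mean of 196 ± 73.4 (SD, n = 3). Trbc2 (ENSMUSG00000076498, chr6:41546730-41548352, plus strand) was at 151, 81.0 and 120 TPM, a mean of 117 ± 35.2. Trbc1 (ENSMUSG00000076490, chr6:41538218-41539881, plus strand) was at 126, 56.5 and 99.3 TPM, a mean of 94.1 ± 35.3. All 3 constant genes had their highest TPM in replicate 1 and their lowest in replicate 2. None of them shares exon bases with a gene on the opposite strand: the nearest one there is Dad1 for Trac, 11273 bases away with 52, 28 and 34 counts, and the inverted variable segment Trbv31 for both beta constant genes, 9339 bases from Trbc2 and 17810 from Trbc1.

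The alpha constant gene stood above each single beta constant gene in every library, and below their sum. Trac exceeded Trbc1 by 1.06 ± 0.01 on the log2 TPM scale (SD, n = 3 libraries) and Trbc2 by 0.71 ± 0.15. Together the beta constant genes, which encode the same chain, reached 278, 138 and 219 TPM in replicates 1, 2 and 3, which is above Trac by 0.13 ± 0.09 on the log2 scale. Trbc2 made up 52.5% of the counts of the 2 beta constant genes in replicate 1 (exact 95% binomial interval 47.3 to 57.6%), 57.0% in replicate 2 (49.2 to 64.5%) and 52.7% in replicate 3 (46.8 to 58.6%). Each of the 3 intervals includes an equal split, and the mean share was 54.1 ± 2.52% (SD, n = 3). Intervals of this kind cover counting error alone: the read pairs carry no molecular identifiers, so several may stem from 1 molecule.

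The signalling chains spanned the widest range of levels. Cd247 (ENSMUSG00000005763, chr1:165788681-165877277, plus strand) was at 184, 190 and 179 TPM in replicates 1, 2 and 3, a mean of 185 ± 5.54 (SD, n = 3). It differed little between libraries on this scale and was, unlike Trac, highest in replicate 2. Cd3d (ENSMUSG00000032094, chr9:44981786-44987339, plus strand) was at 61.2, 35.6 and 64.0 TPM, a mean of 53.6 ± 15.6. Cd3g (ENSMUSG00000002033, chr9:44969572-44980431, minus strand) was at 33.5, 15.9 and 26.4 TPM, a mean of 25.3 ± 8.83. Cd3d and Cd3g, which point away from each other with 1354 bases between them, were both lowest in replicate 2. Cd3e (ENSMUSG00000032093, chr9:44998740-45009627, minus strand) was at 22.7, 18.1 and 23.1 TPM, a mean of 21.3 ± 2.78, and its 3 libraries lay closer together than those of Cd3d and Cd3g.

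The coreceptor gene Cd4 (ENSMUSG00000023274, chr6:124864692-124888221, minus strand) was at 128, 71.8 and 117 TPM, a mean of 105 ± 29.7 (SD, n = 3), again lowest in replicate 2. Its nearest neighbour, Gpr162 on the same strand 709 bases away, had 63, 49 and 44 counts, against 979, 506 and 880 counts of Cd4. On the opposite strand the nearest gene, A230083G16Rik, lies 28642 bases away. The genes of the other coreceptor were far lower: Cd8a, the CD8 alpha chain, had 1 count in each library, and Cd8b1, the beta chain, had 30, 20 and 36 counts and a mean of 10.4 ± 2.64 TPM.

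**Figure D1:**
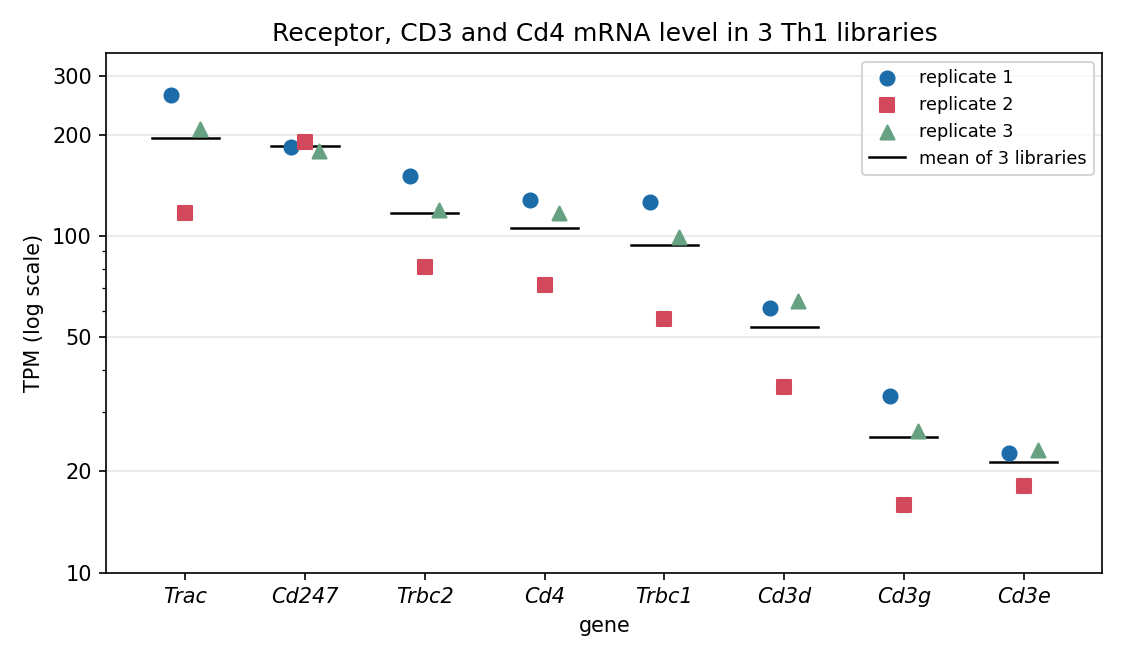
TPM (log scale) of the 8 receptor, CD3 and Cd4 genes in each of the 3 Th1 libraries, ordered by their mean (black line), with 1 symbol per library. Replicate 2 (squares) is lowest for 7 of the 8 genes, and for Cd247 the 3 symbols lie between 179 and 190 TPM. The median TPM of the detected protein-coding genes is also lowest in replicate 2. By TPM the share of all genes lowest in replicate 2 was not counted. With the TMM scaling explained below it is 47.6% of all genes tested.

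By mean TPM the order was Trac, Cd247, Trbc2, Cd4, Trbc1, Cd3d, Cd3g and Cd3e. Only 2 of the 7 neighbouring pairs had ranges over the libraries that did not overlap: Cd247 was above Trbc2 (0.70 ± 0.49 on the log2 scale, SD, n = 3), and Cd3d was above Cd3g (1.10 ± 0.21). In the other 5 neighbouring pairs the ranges overlapped. Taken within each library, Trbc1 was above Cd3d in all 3 (0.78 ± 0.23 on the log2 scale), and the same held for Trbc2 above Cd4 (0.15 ± 0.11) and for Cd4 above Trbc1 (0.20 ± 0.17). Over all genes of the set, 26 of the 28 possible pairs had the same order in each of the 3 libraries; the exceptions were Trac with Cd247 and Cd3g with Cd3e. The number of separated neighbours was 1 without replicate 1 and 5 without replicate 2. An exact sign-flip test over 3 libraries cannot give a two-sided p below 0.25, so none was run. Trac was higher than 96.4% of the 8958 detected protein-coding genes, Cd247 than 96.0%, Cd3d than 86.9% and Cd3e than 71.1%.

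The order depends on the length used. The coding transcript used here is, for each CD3 gene, the one with the most ITAM matches. For the other genes it is the one with the longest coding part. The deposited length merges the exons of every transcript of a gene and is 3.27, 3.20 and 2.79 times that of the coding transcript used here for Cd247, Cd3g and Cd3e, but at most 1.30 times for the other 5 genes. Per length of that transcript, a choice made after seeing the data, the levels on the same scale were 603 ± 18.1 for Cd247, 196 ± 73.4 for Trac, 137 ± 38.5 for Cd4 and 117 ± 35.2 for Trbc2 (SD, n = 3). Trbc1 then had 95.6 ± 35.8, Cd3g 80.7 ± 28.2, Cd3d 60.1 ± 17.5 and Cd3e 59.4 ± 7.76. Cd3g thus moved above Cd3d, Cd4 above Trbc2 and Cd247 above Trac, and of the 7 neighbouring pairs 1, Cd247 with Trac, had ranges apart. The counts used were still those of all merged exons, so read pairs from outside the coding transcript raise these levels. For Cd247, 56.4% of the merged length is shared with the opposite-strand gene Pou2f1, and none of these bases belongs to Cd247-201. Which transcripts the read pairs came from was not tested.

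Of all counts that fell on the 4 CD3 genes, Cd247 took 75.8% in replicate 1 (exact 95% binomial interval 74.1 to 77.5%), 84.2% in replicate 2 (82.6 to 85.7%) and 76.3% in replicate 3 (74.5 to 78.0%). Replicate 2 lay above both others, outside their intervals. The mean shares of counts were 78.8 ± 4.69% for Cd247, 7.74 ± 2.08% for Cd3d, 6.93 ± 0.72% for Cd3e and 6.55 ± 2.08% for Cd3g (SD, n = 3). These shares include length, and they hold for the strand setting of the counts. As shares of TPM, Cd247 had 65.2%, Cd3d 18.6%, Cd3g 8.74% and Cd3e 7.45%. Per length of the coding transcript Cd247 had 75.2%, Cd3g 9.95%, Cd3d 7.44% and Cd3e 7.38%. The latter shares still use the counts of all merged exons, also those outside that transcript.

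Cd3e and Cd247 are the 2 genes of the set that share exon bases with a gene on the opposite strand. In the 40.1 kb that hold Cd3g, Cd3d and Cd3e, the antisense gene Gm48719 (ENSMUSG00000111203, chr9:44999429-45002985, plus strand, exon length 361 bases) shares 135 bases with the last exon of Cd3e, of which 30 are coding and 105 belong to the stop codon and the 3' untranslated part. They make up 3.31% of the exon length of Cd3e and 37.4% of that of Gm48719. The remaining 226 bases of Gm48719 lie within a Cd3e intron.

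**Figure D2:**
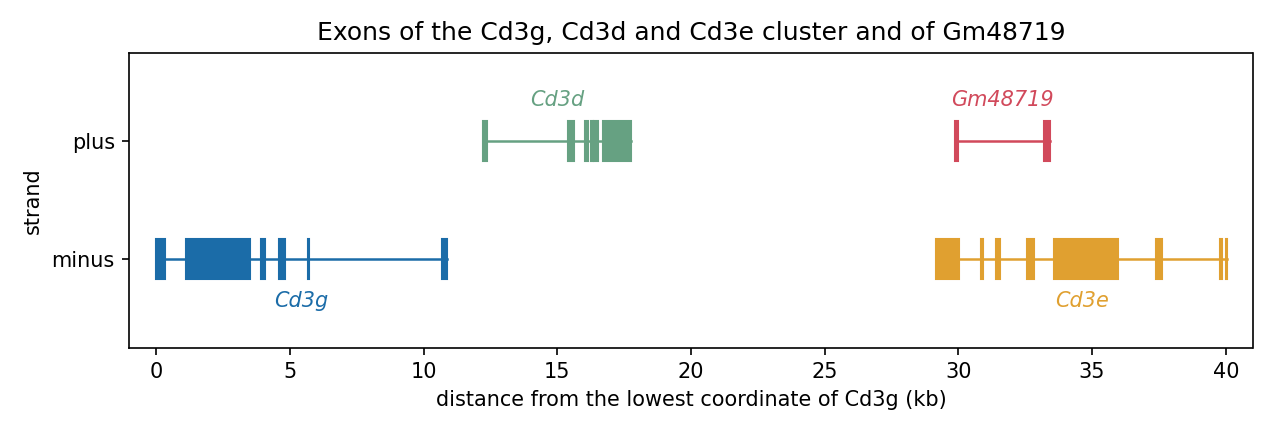
Exons (boxes) of Cd3g, Cd3d, Cd3e and Gm48719 by strand, against the distance in kb from the lowest coordinate of Cd3g, as merged in the deposited gene models. Gm48719 lies within Cd3e on the opposite strand, and its left exon overlaps the last exon of Cd3e.

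Gm48719 had 2961, 2674 and 2758 counts in replicates 1, 2 and 3, against 176, 129 and 176 counts of Cd3e. That is 16.8, 20.7 and 15.7 times the count of Cd3e and, per kb of exon length, 190, 234 and 177 times. The antisense gene was far above the CD3 gene in each library, with a mean of 4213 ± 115 TPM (SD, n = 3). Such a ratio was common in these libraries. In 849 pairs of a protein-coding gene and an annotated antisense gene that shared exon bases and had at least 100 counts between them over the 3 libraries, the antisense gene had more TMM-scaled counts per kb in 741, or 87.3%. TMM is edgeR's trimmed mean of M-values, which sets library sizes by the bulk of the genes. The median ratio was 23.2, and 52 pairs, those with a protein-coding gene at 0 included, had a larger ratio than the 201 of Cd3e and Gm48719. Whether the pairs counted for Gm48719 derive from Cd3e mRNA was not tested.

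**Figure D3:**
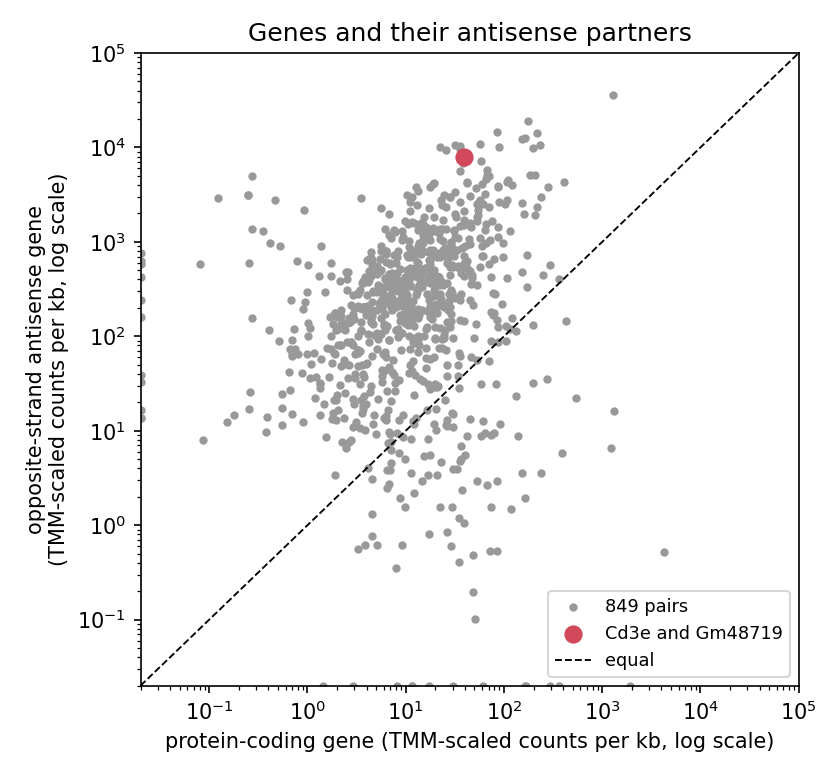
TMM-scaled counts per kb of a protein-coding gene (horizontal, log scale) and of the antisense gene with which it shares exon bases (vertical, log scale), as means of the 3 libraries; each grey point is 1 of 849 pairs, 24 pairs below 0.02 on an axis are drawn at its edge, and the dashed line marks equal values. Of these pairs 741 lie above the line, and Cd3e with Gm48719 (red) is 201 times above it.

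Cd247 shares 3007 exon bases, 56.4% of its exon length, with Pou2f1 (chr1:165865154-166002678, minus strand), which encodes the transcription factor Oct-1. None of these bases belongs to Cd247-201, the transcript with the 3 ITAMs; they lie in exons of other transcripts of the gene, where 291 of them are coding. Pou2f1 had 515, 537 and 535 counts, against 1867, 1774 and 1786 counts of Cd247. The lower gene of this pair was Pou2f1 in each library, at 17.4 ± 1.09 TPM (SD, n = 3). On its own strand Cd247 shares 206 exon bases with Gm16565, which had 32, 31 and 29 counts.

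The design holds no contrast between conditions, so the remaining question was whether the genes varied between the 3 libraries by more than counting error. A chi-square test set each gene's counts against Poisson error at TMM-scaled library sizes (adjusted by Benjamini-Hochberg over 10216 genes). All 8 genes passed the filter on low counts and 6 varied, while 37.8% of all genes tested did. Trac, Cd4, Trbc1, Cd3d and Cd3g varied with their lowest value in replicate 2, as did 14.7% of all genes tested, and Cd247 varied with its highest value there, as did 20.9%. Trbc2 and Cd3e did not pass the threshold of 0.05. Fewer T cells in a sample and less receptor mRNA per cell cannot be told apart in such data, nor from a technical difference between libraries. The pattern was not particular to these genes. Under TMM replicate 2 was the lowest library for 63.7% of the 5854 genes tested without opposite-strand exon overlap. For the 4362 with such overlap it was the highest in 61.8%.

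Trac had 467, 192 and 363 counts in replicates 1, 2 and 3, which is 396, 247 and 348 after TMM scaling. Replicate 2 was at 0.663 times the mean of the other libraries (adjusted p = 1.41e-06). Cd4 had scaled counts of 830, 650 and 844 (adjusted p = 1.77e-05), so that replicate 1 and replicate 3 lay close together and replicate 2 was at 0.776 of their mean. Trbc1 had 180, 74 and 139 counts, and after scaling its replicate 2 was at 0.665 times the mean of the others (adjusted p = 0.00932). Its neighbour Trbc2, with 199, 98 and 155 counts, or 169, 126 and 149 after scaling, had the same order of libraries but did not pass (adjusted p = 0.119). Without replicate 1 Trbc1 did not pass either (adjusted p = 0.0655).

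Cd3d had 211, 113 and 217 counts, or 179, 145 and 208 after scaling (adjusted p = 0.0229). Cd3g had 208, 91 and 161 counts, or 176, 117 and 154 after scaling (adjusted p = 0.0149). Both genes were lowest in replicate 2, Cd3d with its highest value in replicate 3 and Cd3g in replicate 1. The call of each rested on that highest library as well as on replicate 2: Cd3d did not pass without replicate 3 (adjusted p = 0.174), nor Cd3g without replicate 1 (adjusted p = 0.105). Cd3e stood apart from them with scaled counts of 149, 166 and 169 (adjusted p = 0.589). Its replicate 2 was at 1.04 times the mean of the others under TMM, at 1.19 times with sizes from genes without opposite-strand overlap, and at 0.861 times with total counts, so its direction flips with the scaling. Gm48719, across the strand from it, had scaled counts of 2512, 3434 and 2646, highest in replicate 2 (adjusted p = 4.6e-33).

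Cd247 ran the other way, with scaled counts of 1584, 2278 and 1713 and replicate 2 at 1.38 times the mean of the other libraries (adjusted p = 3.28e-28). It was highest in replicate 2 under each of the 4 scalings tried, and least so with total counts, at 1.14 times. Pou2f1 on the opposite strand had the same pattern, with scaled counts of 437, 690 and 513 (adjusted p = 4.29e-12).

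The direction of these differences moved with the position of a gene relative to genes on the other strand. Over all genes tested, the median difference of replicate 2 from the mean of the others was -0.09 on the log2 scale under TMM, -0.36 with total counts and 0.11 with sizes from genes without opposite-strand overlap. Under TMM it was 0.33 for the 4362 genes whose exons overlap an opposite-strand gene, the class of Cd3e and Cd247, and -0.24 for the 5854 others, the class of the other 6 genes. Overlapped genes took 68.0, 77.5 and 70.3% of all counts in replicates 1, 2 and 3. With library sizes from genes without such overlap, a choice made after seeing the data, 2 of the 8 genes still varied, against 33.0% of all genes tested: Trac (adjusted p = 0.00338) and Cd247 (adjusted p = 1.02e-57). At these sizes replicate 2 remained the lowest for Trac, at 0.759 times the mean of the others. The same held for Cd4 (0.888), Trbc2 (0.908), Trbc1 (0.761), Cd3d (0.856) and Cd3g (0.809). Most genes of their class had this trait under TMM: replicate 2 was lowest for 63.7% of genes without such overlap and 47.6% of all genes tested. These 2 shares were not counted at the other sizes. What set replicate 2 apart was not tested. Without replicate 2 none of the 8 genes passed in the same chi-square test, and 1, Cd247, had an unadjusted p below 0.05. How many of all genes passed without replicate 2 was not counted, so this is not a result about the 8 genes.

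**Figure D4:**
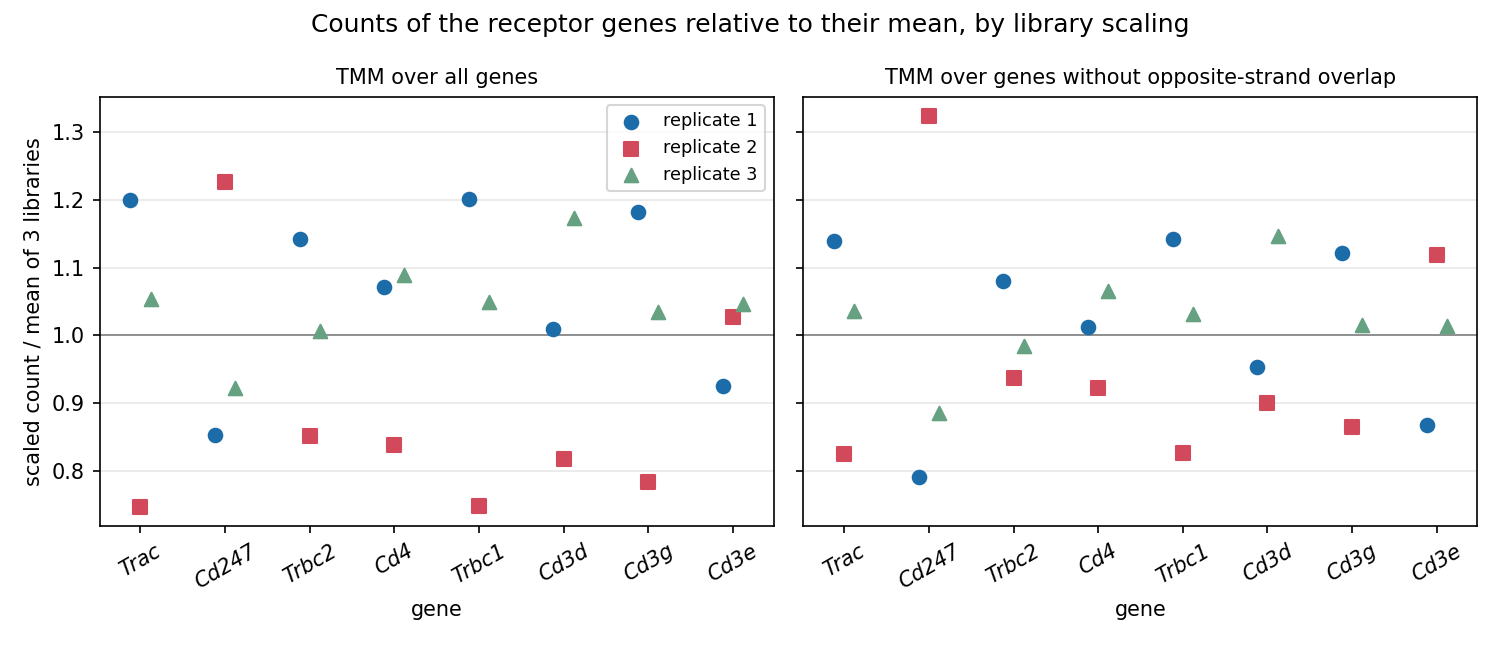
Scaled counts of the 8 genes in each library divided by their mean over the 3 libraries, with library sizes from TMM over all genes (left) and over genes without opposite-strand exon overlap (right). Replicate 2 (squares) is lowest for 6 genes and highest for Cd247 in both panels, and for Cd3e it changes from the middle to the highest library. Under TMM over all genes, replicate 2 is the lowest library for 47.6% of all genes tested.

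Summed over the 6 genes without opposite-strand overlap, the counts were 2244, 1074 and 1915 in replicates 1, 2 and 3, or 0.0631, 0.0365 and 0.0568% of each library. Of 6848 genes with a mean of at least 50 counts, those whose TMM-scaled profile over the 3 libraries was most like this sum, by Euclidean distance of centred log2 CPM (counts scaled to library size), were Mcmbp (232, 111 and 198 counts), Fmnl1 (365, 175 and 312) and Ptprc (2434, 1160 and 2070). With 3 points such likeness is easily reached, and 516 genes lay within 0.1 of the sum. For Cd3e the nearest were 0610030E20Rik (90, 66 and 90 counts), Rars2 (85, 62 and 85) and Ccdc88b (285, 210 and 286), with 292 genes within 0.1. For Cd247 they were Gm26616 (1329, 1262 and 1271 counts), Chadl (1832, 1737 and 1751) and 4831440D22Rik (731, 694 and 702), with 705 genes within 0.1, and all 3 share exon bases with an opposite-strand gene.

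The variable, diversity and joining segments that are joined to the constant genes carried few counts. Of 260 segments, 52 were detected, beside 22.5% of all 50600 genes, and 127 were at 0 in each library. Segments are short, so very few counts reach 1 TPM: Trbj2-1, 50 bases long, had 21.4 TPM in replicate 3 from 2 counts. Together the segments had 450, 256 and 402 counts. The beta variable segments led, with 241, 121 and 207 counts over 35 segments, of which 22 had a count. Per length the highest were the diversity segment Trbd2, 14 bases long, with 5, 6 and 7 counts, the joining segment Trbj2-1 with 8, 3 and 2, and Trbv13-2. Trbv13-2 had the most counts of any segment, 31, 29 and 27, followed by Trbv2 with 25, 14 and 20 and Trbv13-1 with 28, 14 and 16. Trbv13-2 took 12.9% of the beta variable counts in replicate 1 (exact 95% binomial interval 8.91 to 17.8%) and 24.0% in replicate 2 (16.7 to 32.6%); replicate 3, with an interval of 8.77 to 18.4%, was close to replicate 1, and the 3 intervals overlap. The 128 alpha variable segments had 151, 100 and 134 counts, spread over 60 of them. Of the 6 segments that passed the filter none varied in the chi-square test at TMM sizes, where 37.8% of all genes tested did. None varied at DESeq2 sizes or at total counts either, and none had an unadjusted p below 0.05 at TMM sizes. With so few counts per segment the test can find only large differences, so the segments are not shown to be steady.

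The constant genes of the other T cell receptor were at or near 0. The gamma constant genes Trgc1, Trgc2, Trgc3 and Trgc4 had no count, which allows up to 0.844, 1.02 and 0.89 CPM in replicates 1, 2 and 3. The delta constant gene Trdc had 9, 4 and 9 counts, and it shares exon bases with Trdv5 and Gm43434 on the opposite strand. None of the 7 gamma variable and 4 gamma joining segments had a count. The pre-receptor chain Ptcra and the recombinase genes Rag1 and Rag2, which act while the receptor genes are being assembled in the thymus, were at 0, and Dntt, which adds bases at the joints, had 2, 2 and 5 counts.

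The genes that act directly downstream of the CD3 chains were all present. The 12 proximal signalling genes were detected in each library, beside 22.5% of all 50600 genes, with a median of 42.1 TPM. They were led by Lck, the kinase that phosphorylates the ITAMs, at 98.0 ± 28.4 TPM (SD, n = 3). Csk, which restrains Lck, followed at 71.9 ± 18.9 TPM, and Zap70, the kinase that binds the phosphorylated ITAMs, at 69.6 ± 15.8. In the test between libraries 8 of the 12 varied, 7 of them lowest in replicate 2 and none highest, beside 37.8% called, 14.7% called and lowest and 20.9% called and highest in replicate 2 among all genes tested. The count was 4 at DESeq2 size factors and 10 at total counts. It was 1, Ptprc, at sizes from genes without opposite-strand overlap, where 33.0% of all genes tested were called. At DESeq2 size factors and at total counts the share of all genes was not counted, here and for the lists below. Ptprc, the phosphatase CD45, varied most clearly of the list, with 2434, 1160 and 2070 counts (adjusted p = 4.9e-19).

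Of 10 genes for partners and turnover of the receptor, 9 were detected, beside 22.5% of all 50600 genes. Rnf128, a ubiquitin ligase, was at 0. Sla2, an adaptor that dampens receptor signalling, was listed at 800 ± 24.5 TPM with 4829, 4379 and 4475 counts, and it shares exon bases with Rab5if on the opposite strand, so that at this strand setting the source of its counts is uncertain. Laptm5, which promotes breakdown of CD3 zeta, was at 32.4 ± 13.6 TPM and Ubash3a, a regulator of receptor signalling, at 30.5 ± 9.10. Of the 9 genes tested 7 varied between libraries, beside 37.8% of all genes. Of these, 5 were lowest in replicate 2 (14.7% of all genes) and 1, Sla2, was highest (20.9%). The count was 4 at DESeq2 size factors, 8 at total counts and 3 at sizes from genes without overlap, where 33.0% of all genes varied.

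All 6 other pan-T surface genes were detected, beside 22.5% of all 50600 genes. They were led by Cd5 at 110 ± 27.1 TPM, Thy1 at 82.3 ± 22.0 and Cd6 at 73.7 ± 9.83. Of the 6, 2 genes, Cd28 and Thy1, varied between libraries with their lowest value in replicate 2. That count of 2 in 6 is near the 37.8% of all genes tested. At total counts 4 varied, and 3 did at sizes from genes without overlap, where 33.0% of all genes did. By contrast the ITAM chains of other receptors were low: Cd79a of the B cell receptor had 19, 18 and 22 counts (7.34 ± 0.65 TPM), Cd79b and Tyrobp had at most 3 counts in a library, and Fcer1g, which can stand in for CD3 zeta in other cells, was at 0.

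**Figure D5:**
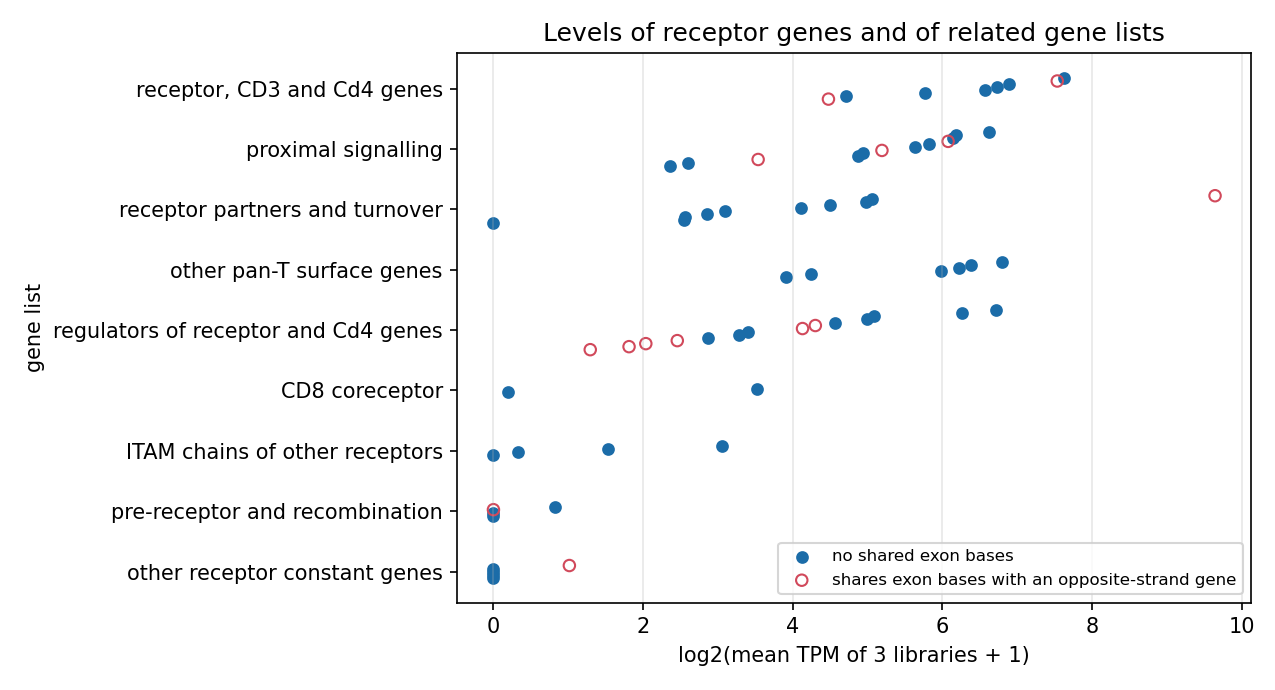
Mean TPM of the 3 libraries, as log2(TPM + 1), for the 8 receptor genes and for the genes of 8 related lists; each point is a gene, and open red circles mark genes that share exon bases with an opposite-strand gene. The receptor genes lie from 21.3 to 196 TPM, and the other receptor constant genes and the recombination genes lie at or near 0.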

How the data were processed

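Counts of read pairs per gene and library were deposited by the authors. Per the file headers they were made with featureCounts 1.4.6-p4 on the exons of GENCODE M13 gene models, keeping pairs with both ends aligned, at strand option 1; per the labels the assembly is mm10. The sources used here do not give the version of the aligner. The exon length, listed in the same deposited files, merges all exons of a gene. From these, TPM, FPKM and CPM were computed here. Symbols came from GENCODE M21 by identifier (50376 of 50600 matched), and gamma chain symbols from RefSeq synonyms. Coordinates are those of the deposited files.

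To test variation between the libraries, a chi-square statistic with 2 degrees of freedom was computed for each gene at TMM sizes over the 10216 genes passing edgeR's filterByExpr, adjusted by Benjamini-Hochberg, with a threshold of 0.05. The test was tried on simulated counts with Poisson error alone, in which 200 of 10216 genes were changed in 1 library. It recovered 17, 38 and 68.5% of changes of 1.25, 1.5 and 2 times, with 1, 4 and 6 false calls. A gene that did not pass is thus not shown to be steady. The simulation holds no variation beyond counting error, so it gives no rate of false calls for these libraries. The common biological coefficient of variation from edgeR was 0.179. A count of 0 allows up to 3 counts. Alternatives were DESeq2 size factors, total counts, no filter, other units, and leaving out each library; sizes from genes without opposite-strand exon overlap and levels per length of 1 coding transcript were added after seeing the data. The genes described and the lists were chosen with earlier results of these data known. Genes were named by a rule: all 8 genes, every opposite-strand gene sharing exon bases or else the nearest gene on each strand, the 3 highest members of each list by TPM, up to 3 members at 0, and the 3 genes most alike in profile. Others named (markers, Trdc, Dntt and segments led by counts among them) were chosen after their values were seen. The B cell marker list is not reported here. Regulators of the receptor and Cd4 genes form a further list. Software was R 4.3.3, edgeR 4.0.16, DESeq2 1.42.0 and Python 3.11.15.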

Additional observations from a re-analysis of the deposited data

How the results depend on the processing

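The number of the 8 genes that varied between libraries was 6 with DESeq2 size factors and without the filter on low counts, and 7 with total counts. It was 2 with sizes from genes without opposite-strand exon overlap, where 33.0% of all genes tested varied. With a library left out it was between 0 and 5, with 0 without replicate 2. At TMM sizes 37.8% of all genes tested varied, and at the remaining settings that share was not counted. With total counts the median difference of replicate 2 from the mean of the others was -0.36 on the log2 scale over all genes tested. The counts at settings without a share are therefore not results about the 8 genes. Detection of all 8 genes held at 5 TPM, at 10 counts and without any 1 library. At 1 TPM in every library 22.5% of all 50600 genes were detected, and at these other settings that share was not counted. The median level was 99.8 TPM, or 55.3 FPKM, 244 TPM over protein-coding and receptor constant genes and 181 TMM-scaled counts per kb. The number of separated neighbours in the order of levels, 2 of 7, was 3 by CPM, 1 per length of 1 coding transcript, and between 1 and 5 with a library left out. As shares of TPM in place of counts, Cd247 had 65.2%, Cd3d 18.6% and Cd3g 8.74%. Of 56 adjusted p-values of single genes under the alternatives, 42 kept their side of the threshold, 13 lost it and 1, Trbc2 at total counts (0.000478), passed it; the cause was not tested. With at most 3553547 counts per library, genes with few counts, such as the variable segments, could be tested only where they passed the filter. No paired analysis was possible because there is 1 group.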

Other observations

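The transcription factors that act on the receptor and Cd4 genes were all detected, 14 of 14, beside 22.5% of all 50600 genes. Their median was 13.1 TPM. Tcf7 was highest at 105 ± 23.7 TPM (SD, n = 3), followed by Ikzf1 at 75.6 ± 22.6 and Cbfb, the partner of the Runx factors, at 33.0 ± 9.29. Zbtb7b, the factor that holds cells in the CD4 lineage, was at 16.5 ± 3.74 TPM with 191, 120 and 202 counts, and it shares exon bases with Gm15417 on the opposite strand. Runx3, known for silencing Cd4 in CD8 T cells, was at 8.76 ± 1.42 TPM with 95, 63 and 85 counts. In the chi-square test at TMM sizes 4 of the 14 varied between libraries, beside 37.8% of all genes tested. With 14 genes that count is near the share of all genes, so it is not a result about these factors. Ikzf1, Ets1 and Tox were lowest in replicate 2, and Gata3 was highest there with 29, 39 and 30 counts. The number was 3 at DESeq2 size factors, 8 at total counts and 2 at sizes from genes without opposite-strand overlap, where 33.0% of all genes varied. Of the 14, 6 share exon bases with an opposite-strand gene. Zbtb7b and Runx3 were named after their values were seen.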
